A study of Homo sapiens with 10 samples.

Results

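The mitosis and G2/M genes examined here are 35 genes whose products act between the end of DNA replication and the division of the cell. They were chosen by name and taken from the deposited table by gene symbol, so that 35 of its 58870 genes are members, and all 35 were abundant enough to be tested in every comparison. The table holds RNA-seq of LS180, an established human colorectal cancer cell line, carrying CRISPR interference, in which a catalytically inactive Cas9 is guided to a promoter and represses transcription there. The groups were 3 stable lines with guides against RNASE1, a gene for a secreted ribonuclease (sg1, sg2 and sg3), and 2 that carry non-targeting guides instead (NTC1 and NTC2). Each line gave 1 library lettered B and 1 lettered A, which makes 6 guide and 4 NTC libraries. All lines were grown in the same serum-containing medium and received no drug, and the labels do not say what the letters stand for or whether a line is a single clone. The members were read for differences between the letters, between the guide and NTC lines, and among the lines.

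As cells complete S phase, cyclins A and B accumulate and activate CDK1, which, with Polo-like and Aurora kinases, drives entry into mitosis. The spindle assembly checkpoint then delays the anaphase-promoting complex until every chromosome is attached, after which that ubiquitin ligase destroys cyclin B and securin and the cell exits mitosis. Most genes of this program are transcribed as a wave that peaks in G2 and mitosis, through MuvB complexes at the cell cycle homology region (CHR) of their promoters and NF-Y at nearby CCAAT boxes, so a bulk level reflects both how many cells are at that stage and how much RNA each holds, and these cannot be told apart here.

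RefSeq promoter windows on GRCh38.p14, reaching from 250 bases before to 50 bases after an annotated start, were found for 28 members. AURKA, HMGB2, UBE2C, BUB3, TTK, TPX2 and BIRC5 had none in the table used. The letters TTTGAA or TTCGAA, read on both strands and written here as the CHR core, occurred in 21 of the 28 (75%), against 19.5% of 27305 genes with a window. The letters CCAAT, read on both strands, occurred in 24 of the 28 (85.7%), against 39.7% of those genes. Both occurred together in 19 members (67.9%), against 7.85%. A CHR core starting 10 to 40 bases before the start site, an interval set after the positions had been seen, was present in 13 members (46.4%), against 2.21% of the genes. The 5 windows below belong to members whose levels differed between the letters in opposite directions: CKS2, CCNB1 and CCNB2 were lower in B libraries, and CENPF and KIF11 were higher. Each is printed 5′ to 3′ on the strand of its gene, the + strand in all 5, with CHR cores and CCAAT boxes of either strand in capitals.
CKS2 promoter (chr9:89310945-89311244): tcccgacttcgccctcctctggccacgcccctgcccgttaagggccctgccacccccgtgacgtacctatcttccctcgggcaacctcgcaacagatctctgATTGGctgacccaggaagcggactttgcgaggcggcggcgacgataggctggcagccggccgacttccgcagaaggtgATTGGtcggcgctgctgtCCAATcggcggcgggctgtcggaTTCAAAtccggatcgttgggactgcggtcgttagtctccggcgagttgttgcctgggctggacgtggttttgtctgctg
CCNB1 promoter (chr5:69166900-69167199): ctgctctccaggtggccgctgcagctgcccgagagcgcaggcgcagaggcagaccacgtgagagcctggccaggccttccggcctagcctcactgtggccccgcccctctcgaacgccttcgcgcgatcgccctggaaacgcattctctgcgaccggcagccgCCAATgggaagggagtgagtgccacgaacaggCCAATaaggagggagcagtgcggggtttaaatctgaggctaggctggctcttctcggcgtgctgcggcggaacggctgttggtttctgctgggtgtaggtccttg
CCNB2 promoter (chr15:59104896-59105195): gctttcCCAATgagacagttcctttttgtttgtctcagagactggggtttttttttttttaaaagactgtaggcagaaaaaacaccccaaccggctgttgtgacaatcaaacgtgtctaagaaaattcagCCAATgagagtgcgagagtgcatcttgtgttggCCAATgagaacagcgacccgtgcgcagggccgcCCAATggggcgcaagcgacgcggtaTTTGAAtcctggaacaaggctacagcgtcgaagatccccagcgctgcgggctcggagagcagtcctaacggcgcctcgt
CENPF promoter (chr1:214602945-214603244): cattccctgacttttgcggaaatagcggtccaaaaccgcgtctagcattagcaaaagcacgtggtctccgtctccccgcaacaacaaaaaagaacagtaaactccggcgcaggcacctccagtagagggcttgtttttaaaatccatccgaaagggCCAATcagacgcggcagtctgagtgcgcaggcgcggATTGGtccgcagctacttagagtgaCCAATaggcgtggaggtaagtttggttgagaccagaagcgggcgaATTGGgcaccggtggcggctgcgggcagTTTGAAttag
KIF11 promoter (chr10:92592880-92593179): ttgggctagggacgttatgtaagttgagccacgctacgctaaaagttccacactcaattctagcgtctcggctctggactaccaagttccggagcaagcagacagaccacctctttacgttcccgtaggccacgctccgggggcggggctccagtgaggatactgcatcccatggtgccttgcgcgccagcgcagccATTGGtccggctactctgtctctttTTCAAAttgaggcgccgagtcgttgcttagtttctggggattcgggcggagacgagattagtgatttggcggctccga
The CHR core began 29 bases before the start in CKS2 and CCNB2 and 28 bases before it in KIF11, while in CENPF it began 40 bases after the start. CCNB1 carried neither of the 2 spellings searched. Other spellings of the CHR were not searched, so this does not show that the element is absent. CCNB1 had 2 CCAAT boxes whose first letters were 32 bases apart. CCNB2 had 4 CCAAT boxes, and the 3 nearest the start were spaced 33 and 33 bases apart. Among the members with a window, a CHR core was found in 12 of the 16 that were lower in B, in both of those that were higher and in 7 of the 10 that did not pass the test. A match of letters is a description of the window and not evidence that a factor binds there.

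**Figure D1:**
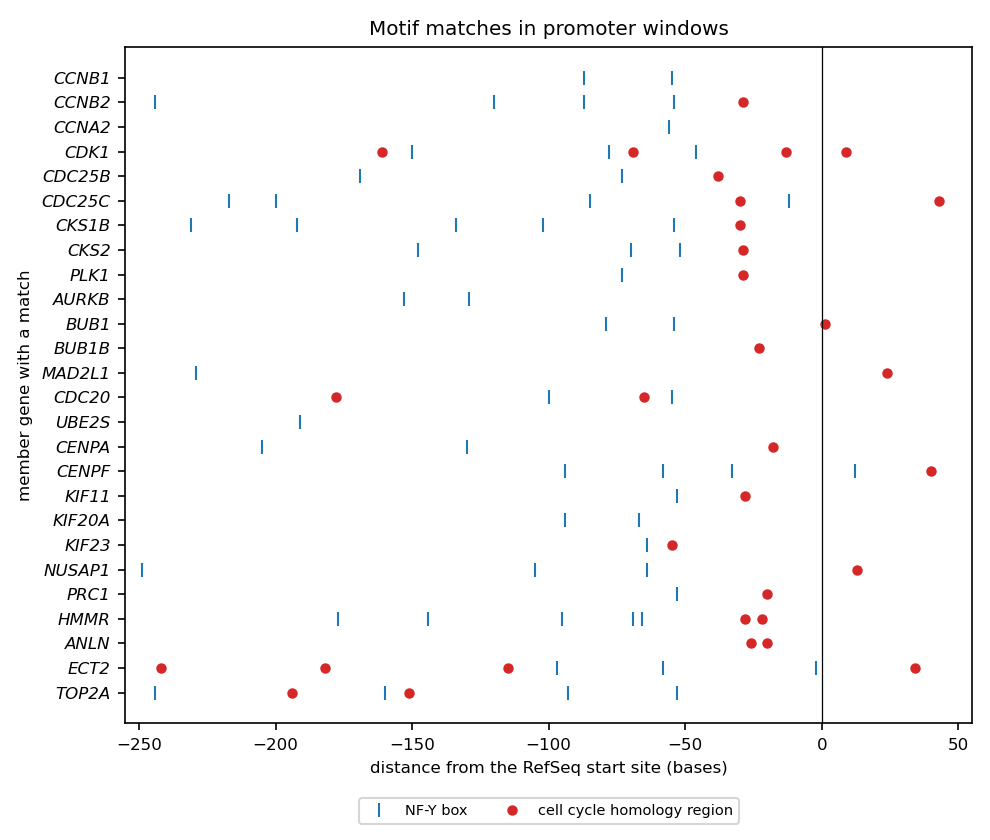
Position of CHR cores (red points) and CCAAT boxes (blue ticks) in the promoter windows of the members with at least 1 match. The horizontal axis gives bases from the RefSeq start site, with the start at 0, and each row is a gene with all of its windows overlaid. Of the 28 genes with a window, 13 have a CHR core 10 to 40 bases before the start.

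Library totals ranged from 39026605 to 44724971 counts in B and from 41231348 to 45050991 in A. RNASE1, the targeted gene, stood at 1.02 to 3.75 CPM (the depth-scaled count of edgeR after TMM normalization) in the 6 guide libraries, against 16.4 to 23.7 CPM in the 4 NTC libraries. All 8 genes that mark LS180 as a colorectal epithelial line were present at a mean of 1 CPM or more. They summed to 5335 to 6328 CPM in B and 6681 to 6960 CPM in A, a difference that came with lower KRT8 and KRT18. In the letter comparison described below, these 2 were called lower in B (log2 fold changes -0.38 and -0.38). Another 3 of the 8 were called higher, KRT20 (0.42), CDX2 (0.17) and VIL1 (0.16), so the list did not move as a set. Marker lists of other cell types stayed low. The fibroblast list summed to 3.74 to 5.32 CPM in B and 3.83 to 4.93 CPM in A, with COL1A2 at 0, and the endothelial list to 0.143 to 0.358 CPM in B and 0.0224 to 0.164 CPM in A, with KDR at 0. The leukocyte list summed to 35.9 to 45.7 CPM in B and 43.3 to 47.0 CPM in A, with PTPRC at 0 and most of it from LYZ. Whether these marker differences between the letters have a part in the results below was not tested.

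Together the members took 0.451% to 0.460% of all counts in B libraries and 0.468% to 0.479% in A libraries, with no overlap between the letters. Levels between genes are compared here as CPM per kilobase of the longest GENCODE 29 basic transcript. On that scale CKS2, a small CDK-binding subunit, was highest at 241 (range 194 to 291 over 10 libraries), followed by CCNB1 at 122, CDC20 at 117, HMGB2 at 116 and UBE2S at 112, whose ranges over the libraries overlap. The lowest were CENPE at 2.63, TTK at 6.97 and CDC25C at 9.87. Most members moved little over the experiment, though how other genes of like abundance moved on the same measure was not counted. The highest library was less than 1.2-fold above the lowest for 22 of 35 members, with a median ratio of 1.18, and the ratio ran from 1.05 for BUB3 to 1.56 for CENPF. The letter accounted for a median of 60.4% of a member's variance on the log2 scale, against 41.5% over 9527 genes at 10 CPM or more, and the arm for 2.52%, against 5.02%.

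In the comparison of B with A within lines, the members that fell in B included the cyclins CCNB1, CCNB2 and CCNA2, the CDK1 subunits CKS2 and CKS1B, the kinases AURKA and PLK1, and CDC20 and UBE2S, which act with the anaphase-promoting complex. CENPF, KIF11 and HMGB2 rose. Other members of the same role groups, such as CDK1, AURKB, BUB1B and UBE2C, were not called. Of the 35 members, 21 passed the edgeR quasi-likelihood test at a Benjamini-Hochberg adjusted p under 0.05, and 32.1% of all 15462 tested genes did. At an unadjusted p under 0.05 stood 24 members, and 41.8% of all genes. Lower levels made up 18 of the 21 calls, where 16.2% of all genes were called lower, and higher levels 3, where 15.9% of all genes were called higher. The members' median log2 fold change was -0.091, with 26 below 0 and 9 above, and the median over all tested genes was -0.00084. All B libraries lay below all A libraries for 13 members, a pattern seen in 10.2% of all genes, and above them for 1, also seen in 10.2%. The other 21 members overlapped between the letters. Level in B was below that in A in all 5 lines for 16 members and above it in all 5 lines for 3. The share of all genes with such agreement of the lines was not counted, so these counts describe the members alone. Line by line, the median difference was -0.039 in sg1, -0.096 in sg2, -0.065 in sg3, -0.075 in NTC1 and -0.066 in NTC2, and 25, 28, 25, 26 and 21 of the 35 members were lower in B in those lines. The share of all genes lower in B in each line was not counted either.

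**Figure D2:**
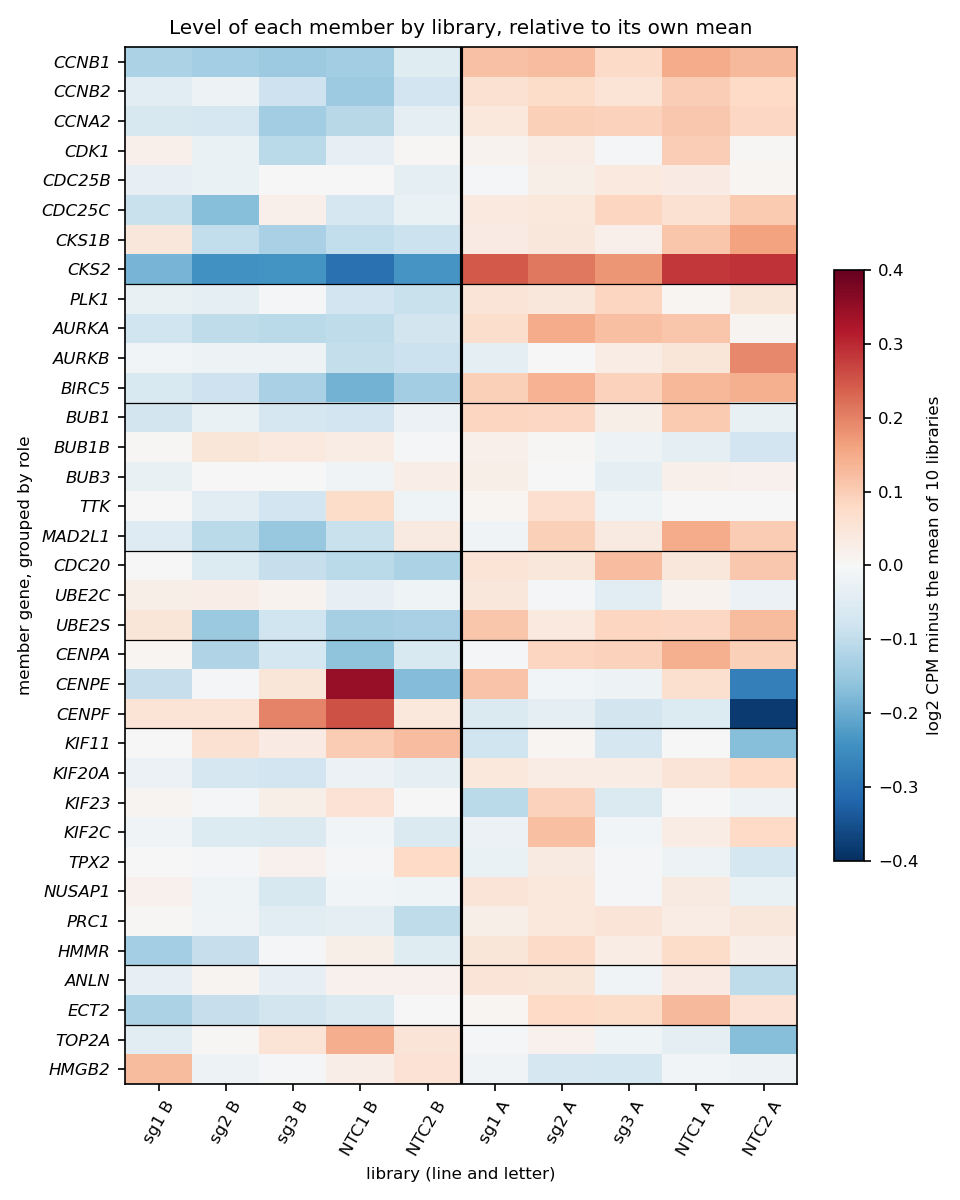
Level of each of the 35 members in each library as log2 CPM minus the member's mean over the 10 libraries, with B libraries left of the thick line and A libraries right of it. Rows are grouped by role, and thin lines separate the groups. CKS2 and the cyclins are blue (lower) in all B libraries, CENPF is red (higher) in all B libraries, and many rows are close to white.

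Values in the following paragraphs are CPM in the lines sg1, sg2, sg3, NTC1 and NTC2, always in that order. Gene coordinates in parentheses are those of GENCODE 29 on GRCh38. The first group was the cyclins, CDK1 and its activators, of which 6 of 8 fell in B and 2 were not called. CCNB1, the cyclin whose binding to CDK1 drives mitotic entry (chr5:69167010-69178245), stood at 241, 239.6, 238, 239 and 255 in B libraries, against 285, 287, 277, 292 and 288 in A libraries. Every B library lay below every A library, and NTC2 was the highest of the B libraries. CCNB1 fell by 0.24 on the log2 scale (SE 0.025, 95% interval -0.29 to -0.18, adjusted p = 1.34e-05). CCNB2, the second mitotic B-type cyclin, stood at 133, 135, 129.7, 124 and 130.2 in B and 143, 144, 142, 147 and 145 in A. Its letters did not overlap, and it fell by 0.15 on the log2 scale (SE 0.028, 95% interval -0.21 to -0.085, adjusted p = 0.00134). CCNA2, the cyclin of S phase and G2, stood at 189, 189, 179, 183 and 193 in B and 204, 211, 211, 213 and 209 in A. The letters of CCNA2 were separate too, and it fell by 0.17 on the log2 scale (SE 0.027, 95% interval -0.22 to -0.11, adjusted p = 0.000348).

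CKS2 gave the widest separation of any member between the letters. This subunit of the CDK1 complex (chr9:89311198-89316703) stood at 128, 123, 124, 119 and 124 in B libraries, against 173, 169, 165, 177 and 178 in A libraries. No library of one letter came near the other letter, and the fall was present in each line. CKS2 fell by 0.48 on the log2 scale (SE 0.03, 95% interval -0.54 to -0.42, adjusted p = 2.5e-07). CKS1B, its paralog, which also serves the ubiquitin ligase that degrades p27, stood at 96.7, 87.4, 85.6, 87.5 and 88.3 in B and 95.7, 96.6, 94.9, 101 and 105 in A. Here sg1 was high in B and overlapped the A libraries. CKS1B fell by 0.15 on the log2 scale (SE 0.035, 95% interval -0.22 to -0.071, adjusted p = 0.00535). Its counts were not whole in any library, since RSEM shares reads among similar genes, and with offsets for GC content and transcript length its adjusted p was 0.11 (range over 24 alternatives 6.3e-05 to 0.128).

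CDK1, the catalytic partner of these cyclins, stood at 103, 99.8, 94.2, 99.4 and 102 in B and 102, 104, 101, 109 and 102 in A. Its letters overlapped, and its log2 fold change of -0.056 (SE 0.029, adjusted p = 0.154) did not pass the test. CDC25B and CDC25C are phosphatases that activate CDK1. CDC25B ranged from 140.4 to 144 CPM in B and from 143 to 148 CPM in A, overlapped between letters and was not called (log2 fold change -0.038, adjusted p = 0.27). CDC25C ranged from 18.6 to 21.2 CPM in B and from 21.5 to 22.6 CPM in A without overlap, and it fell by 0.13 on the log2 scale (SE 0.041, 95% interval -0.22 to -0.045, adjusted p = 0.0222). The call for CDC25C was lost in 11 of 24 alternatives, DESeq2 among them, and without any 1 of the NTC1 or sg2 libraries (log2 fold change -0.11 to -0.13). In this paired fit, leaving out 1 library also removes its partner from the letter difference, so such alternatives are not separate checks.

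**Figure D3:**
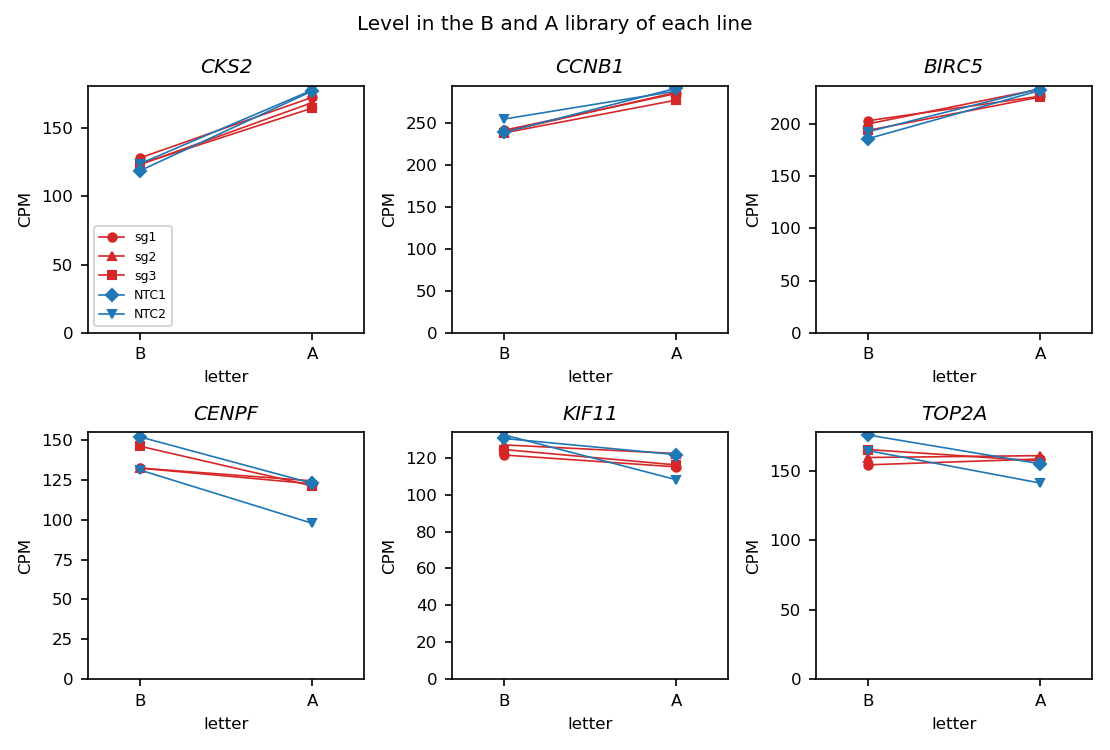
CPM of 6 members in the B library (left) and the A library (right) of each line, joined by a line, with guide lines in red and NTC lines in blue and each vertical axis starting at 0. CKS2, CCNB1 and BIRC5 are lower in B in all 5 lines and CENPF and KIF11 higher in B in all 5, while TOP2A is higher in B in 3 of 5 lines.

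Among the mitotic kinases and survivin, 3 of 4 fell in B and 1 was not called. BIRC5, which encodes survivin, a subunit of the chromosomal passenger complex (chr17:78214186-78225636), stood at 203, 200.3, 194, 186 and 193 in B libraries, against 227, 234, 226, 233 and 234 in A libraries. The letters were separate, and the NTC lines were among the lower values in B. BIRC5 fell by 0.24 on the log2 scale (SE 0.028, 95% interval -0.30 to -0.18, adjusted p = 2.96e-05). AURKA, the kinase of centrosomes and spindle poles, stood at 92.9, 91.5, 91.1, 91.4 and 93.2 in B and 103, 109, 107, 106 and 98.9 in A, again with no overlap. AURKA fell by 0.18 on the log2 scale (SE 0.029, 95% interval -0.25 to -0.12, adjusted p = 0.000305). Its call was lost in the NTC lines alone, at an adjusted p of 0.0508 in edgeR (range over 24 alternatives 1.46e-07 to 0.0508). PLK1, the Polo-like kinase of mitotic entry and spindle assembly, stood at 237, 236, 240.5, 229 and 227 in B and 250.3, 249, 257, 243 and 250.2 in A. The gap between its letters was narrow, and PLK1 fell by 0.10 on the log2 scale (SE 0.025, 95% interval -0.15 to -0.042, adjusted p = 0.00918). The PLK1 call was lost in the guide lines alone (-0.083), in the NTC lines alone (-0.11) and with GC and length offsets (-0.052). AURKB, the kinase partner of survivin, stood at 84.2, 83.6, 83.7, 79.4 and 79.8 in B and 82.7, 84.6, 86.4, 87.7 and 96.7 in A. Its letters overlapped in the guide lines and were wider apart in the NTC lines, and its log2 fold change of -0.092 (SE 0.039, adjusted p = 0.0904) missed the threshold. Without either sg1 library AURKB passed it, with log2 fold changes of -0.12 and -0.12.

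Spindle checkpoint genes split, with 2 of 5 lower in B and 3 not called. MAD2L1, whose product restrains CDC20, stood at 130.1, 125, 121, 127 and 138 in B and 134, 144, 138, 149 and 145 in A. B was below A in each line although NTC2 B reached into the range of the A libraries, and MAD2L1 fell by 0.15 on the log2 scale (SE 0.031, 95% interval -0.21 to -0.078, adjusted p = 0.00269). BUB1, a checkpoint kinase of the kinetochore, stood at 94.3, 97.4, 94.6, 94.01 and 97.6 in B and 105, 105, 101, 107 and 97.04 in A. NTC2 was the 1 line in which B was not below A. BUB1 fell by 0.11 on the log2 scale (SE 0.03, 95% interval -0.17 to -0.041, adjusted p = 0.0156), and the call was lost without either NTC1 library, without sg2 A or without sg3 A (log2 fold change -0.084 to -0.11). BUB1B, which encodes BubR1 of the mitotic checkpoint complex, stood at 109, 112, 112, 111 and 108 in B and 110.1, 109, 107, 106 and 103 in A, with overlap and no call (log2 fold change 0.046, adjusted p = 0.214). BUB3, the adaptor of BUB1 and BubR1, ranged from 158 to 164 CPM in B and from 157 to 164 CPM in A, and TTK, the kinase that starts checkpoint signalling, from 24.6 to 27.3 CPM in B and from 25.7 to 27.2 CPM in A. Neither was called, at adjusted p of 0.89 for BUB3 and 0.7 for TTK.

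Partners of the anaphase-promoting complex came next, with 2 of 3 lower in B. CDC20, the activator that the checkpoint holds back, stood at 207, 199, 194, 192 and 189 in B libraries, against 215, 214, 225, 213 and 223 in A libraries. The letters did not overlap, and CDC20 fell by 0.15 on the log2 scale (SE 0.03, 95% interval -0.22 to -0.085, adjusted p = 0.00171). UBE2S, the enzyme that extends ubiquitin chains on substrates of the complex, stood at 295, 257, 270.3, 260.3 and 261 in B and 308, 293, 303, 302 and 312 in A. Its sg1 B library was high and reached into the A range. UBE2S fell by 0.18 on the log2 scale (SE 0.029, 95% interval -0.24 to -0.11, adjusted p = 0.000445). UBE2C, the enzyme that places the first ubiquitins, stood at 87.5, 87.6, 86.8, 84.1 and 84.9 in B and 88.8, 85.7, 83.4, 86.8 and 84.7 in A, with full overlap (log2 fold change 0.006, adjusted p = 0.898). CDC20, UBE2S, AURKA and PRC1 had counts that were not whole in all 10 libraries, so part of their reads was shared with other genes.

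Kinetochore genes went both ways. CENPF, a large protein that loads on kinetochores in G2 (chr1:214603195-214664588), stood at 132, 132, 146, 152 and 131 in B libraries, against 123, 124, 121, 123 and 97.8 in A libraries. It was the member with every B library above every A library, and the NTC2 A library was far below the others. CENPF rose by 0.24 on the log2 scale (SE 0.041, 95% interval 0.15 to 0.33, adjusted p = 0.000482). CENPA, the histone variant that marks centromeres, stood at 26.8, 24.6, 25.4, 23.9 and 25.6 in B and 26.6, 28.4, 28.5, 29.5 and 28.5 in A. In sg1 its letters were level and in the other lines B was lower, and CENPA fell by 0.16 on the log2 scale (SE 0.043, 95% interval -0.26 to -0.071, adjusted p = 0.00985). The call for CENPA was lost without NTC1 A or NTC1 B (log2 fold changes -0.13 and -0.13). CENPE, the kinetochore motor that moves chromosomes to the spindle equator, ranged from 19.99 to 28.7 CPM in B and from 18.6 to 24.4 CPM in A and was not called (log2 fold change 0.054, adjusted p = 0.509).

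Of the 8 motor and spindle genes, 3 fell in B, 1 rose and 4 were not called. KIF11, the motor that pushes spindle poles apart (chr10:92593286-92655395), stood at 121, 127, 124, 130.5 and 132 in B and 115, 122, 116, 122 and 108 in A. B was above A in each line, with overlap between lines, and KIF11 rose by 0.13 on the log2 scale (SE 0.033, 95% interval 0.056 to 0.20, adjusted p = 0.00879). In the guide lines alone it was not called (0.080). KIF20A, a motor of the central spindle, stood at 76.05, 73.8, 73.3, 76.1 and 75.2 in B and 79.5, 78.9, 78.8, 80.1 and 81.6 in A. The letters were separate by a small margin, and KIF20A fell by 0.091 on the log2 scale (SE 0.027, 95% interval -0.15 to -0.033, adjusted p = 0.0184). That call was lost without any 1 of the sg2 or sg3 libraries (log2 fold change -0.087 to -0.092). HMMR, a spindle-pole microtubule binder, ranged from 58.03 to 64.7 CPM in B and from 64.96 to 67.2 CPM in A, and it fell by 0.10 on the log2 scale (SE 0.032, 95% interval -0.17 to -0.033, adjusted p = 0.0247). Leaving out any 1 of the sg1 or sg2 libraries ended the call for HMMR, at log2 fold changes of -0.081 to -0.086. PRC1, which bundles the antiparallel microtubules of the midzone, ranged from 138 to 149 CPM in B and from 151 to 154 CPM in A, and it fell by 0.076 on the log2 scale (SE 0.027, 95% interval -0.13 to -0.018, adjusted p = 0.0461). Without any 1 of the libraries of NTC1, NTC2, sg2 or sg3 PRC1 was no longer called (log2 fold change -0.057 to -0.083), and it was lost in 18 of 24 alternatives. The other 4 overlapped between letters. KIF2C, a microtubule depolymerase, ranged from 82.4 to 85.2 CPM in B and from 84.5 to 93.3 CPM in A (log2 fold change -0.077, adjusted p = 0.0758) and passed the test without either sg1 library (-0.098 and -0.097). KIF23, the motor subunit of centralspindlin, ranged from 37.6 to 39.4 CPM in B and from 35.1 to 40.2 CPM in A (adjusted p = 0.496). TPX2, an activator of Aurora A, ranged from 226 to 239.7 CPM in B and from 216 to 232 CPM in A (adjusted p = 0.375), and NUSAP1, a spindle microtubule binder, from 109.9 to 116 CPM in B and from 113 to 119 CPM in A (adjusted p = 0.305).

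In the cytokinesis pair, ECT2, the exchange factor that activates RhoA at the division plane, stood at 242, 248, 252, 255 and 265 in B and 266, 279.5, 278, 289 and 276 in A. The letters were separate, and ECT2 fell by 0.14 on the log2 scale (SE 0.026, 95% interval -0.19 to -0.082, adjusted p = 0.00105). In the NTC lines alone ECT2 was not called (-0.12). ANLN, the scaffold of the contractile ring, ranged from 97.3 to 101 CPM in B and from 92.7 to 103 CPM in A with overlap (log2 fold change -0.0054, adjusted p = 0.918). Both chromatin genes had values above 0. TOP2A, the topoisomerase that untangles sister chromatids, stood at 154, 159.7, 165, 176 and 165 in B and 159, 161, 157, 155 and 141 in A. The NTC lines were higher in B and the guide lines overlapped, and the log2 fold change of 0.086 (SE 0.036, adjusted p = 0.0839) did not pass, although it did without sg1 A (0.12) or sg1 B (0.12). HMGB2, a DNA-bending protein, ranged from 215 to 238 CPM in B and from 208 to 217 CPM in A, with B above A in all 5 lines. HMGB2 rose by 0.075 on the log2 scale (SE 0.025, 95% interval 0.021 to 0.13, adjusted p = 0.0352), and this call was lost in 17 of 24 alternatives, which include every omission of 1 library except NTC2 B (log2 fold change 0.059 to 0.086).

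Transcript length moved with the letter difference. Across the 35 members the Spearman correlation of length with the log2 fold change of B over A was 0.55, and it was 0.44 across 9523 genes at 10 CPM or more, where the genes share the same 10 libraries. Of 13 members with a transcript under 2500 bases, 8 were called lower and 1 higher, with a median of -0.13, and of 3027 genes of that length at 10 CPM or more 39.2% were lower and 6.24% higher, with a median of -0.075. Of 15 members from 2500 to under 4500 bases, 9 were lower and 0 higher, with a median of -0.091, against 22.1% lower and 17.3% higher of 3260 genes, with a median of -0.013. Of 7 members at 4500 bases or more, 1 was lower and 2 higher, with a median of 0.054, against 10.8% lower and 38.7% higher of 3236 genes, with a median of 0.063. The order of the length classes was thus shared by genes at large. GC content of the transcript gave a correlation of -0.29 in the members and 0.024 across those genes. With offsets for GC content and length in each library, a setting chosen after seeing the data, 18 members were called (30.1% of all genes), 14 lower (15.1% of all genes) and 4 higher (15.1%), and 16 of the original 21 were among them. CKS2 then had a log2 fold change of -0.39, CCNB1 of -0.19, BIRC5 of -0.22 and CENPF of 0.14, all past the threshold. What part length has in the remaining difference was not tested.

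**Figure D4:**
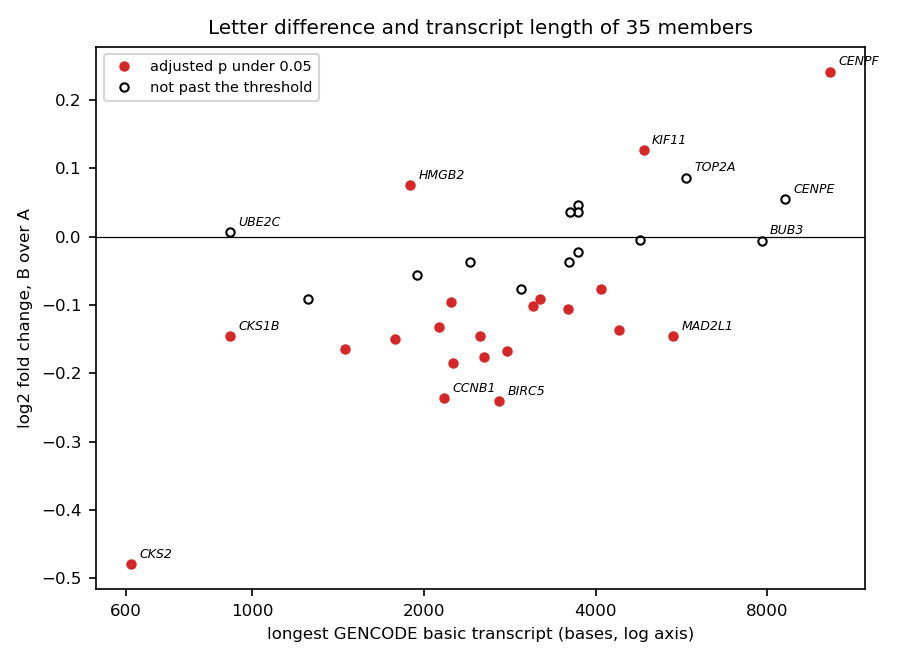
Log2 fold change of B over A for each of the 35 members against the length of its longest GENCODE basic transcript, on a log axis, with red points past an adjusted p of 0.05 and open points not. Short transcripts such as CKS2 lie below 0 and the longest, CENPF, above it, with a Spearman correlation of 0.55.

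Of 71 further mitosis genes in 6 lists, 16 rose (22.5%) and 17 fell (23.9%) in B, with a median log2 fold change of -0.0033. Over all tested genes 15.9% rose and 16.2% fell, with a median of -0.00084, and the list counts below are to be read against those shares. Values in parentheses here are log2 fold changes of B over A. Condensins SMC2 (0.26), SMC4 (0.21) and NCAPH (0.091) rose and NCAPH2 (-0.14) fell. In the cytokinesis list CIT (0.28) and ARHGAP11A (0.12) rose, and RACGAP1 (-0.23), DEPDC1 (-0.21) and CEP55 (-0.17) fell. In the list of the anaphase-promoting complex and separase FZR1 (0.11) and CCNF (0.088) rose. PTTG1 (-0.18), which encodes securin, CDC27 (-0.13) and ANAPC5 (-0.078) fell. Of the other mitotic entry kinases PKMYT1 (0.19) and MASTL (0.11) rose, and NEK2 (-0.16) and BORA (-0.13) fell. In the list of 23 other kinetochore and passenger genes 2 rose (8.7%) and 5 fell (21.7%). In that of 16 other spindle and motor genes 5 rose (31.2%), KIF18B the most (0.33), and 3 fell (18.8%). Among 26 S phase genes 11 rose (42.3%) and 2 fell (7.69%), with a median of 0.064. Among 13 G1 cyclin and E2F genes 4 rose (30.8%) and 1 fell (7.69%), with a median of 0.063. MKI67, the proliferation marker Ki-67, rose (0.23, adjusted p = 0.000632). Its transcript of 12678 bases falls in the length class where 38.7% of genes were higher in B. Its NTC2 A library stood at 81.4 CPM, against 110 to 116 CPM in the other A libraries. What part either has in the rise of MKI67 was not tested. Of 9 tested genes of CDK inhibitors and quiescence 1 rose and 1 fell, with a median of 0.0074. These were BTG2 (0.095), an antiproliferative gene, and CDKN1A (-0.28), which encodes the CDK inhibitor p21 and was the lower. Of 14 regulators of G2/M transcription 2 rose (14.3%), RBL1 (0.28) and LIN54 (0.18), and 1 fell (7.14%), TFDP1 (-0.078), with a median of -0.00027. FOXM1, the activator of the late wave, had 0.067 (adjusted p = 0.0751) and MYBL2, which encodes B-MYB, had -0.0026 (adjusted p = 0.955).

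The comparison of arms asked whether repression of RNASE1 came with a change in these genes, and no member was called. For this test the B and A counts of each line were summed, and 3 guide lines were set against 2 NTC lines. In the edgeR quasi-likelihood test 0 of 35 members passed, where 0.0231% of 17335 tested genes did, 1 member had an unadjusted p under 0.05 (7.98% of all genes) and DESeq2 called 0. The median log2 fold change was -0.0075 for the members and -0.00083 for all genes, and the members ran from -0.075 to 0.048. The 95% intervals of all 35 lay within a 1.2-fold change either way, with outer bounds of 0.869-fold and 1.14-fold, as did those of 97.8% of 9527 genes at 10 CPM or more. No member had its 6 guide libraries all on one side of its 4 NTC libraries, a pattern present in 0.946% of all genes.

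The member with the lowest value was MAD2L1. It stood at 132, 135 and 129.9 CPM in sg1, sg2 and sg3, against 138 CPM in NTC1 and 141 CPM in NTC2. Its guide lines lay below its NTC lines, and its log2 fold change was -0.075 (SE 0.028, 95% interval -0.14 to -0.014, adjusted p = 0.512). ECT2 stood at 254, 264 and 265 CPM in sg1, sg2 and sg3, against 272 CPM in NTC1 and 270.4 CPM in NTC2, also with lower guide lines, and had a log2 fold change of -0.049 (SE 0.028, adjusted p = 0.698). PLK1 was the highest of the members and stood at 244, 242 and 249 CPM in sg1, sg2 and sg3, against 236 CPM in NTC1 and 239 CPM in NTC2, with higher guide lines. Its log2 fold change was 0.048 (SE 0.026, 95% interval -0.009 to 0.11, adjusted p = 0.695). CCNB1 averaged 261 ± 3.13 CPM in the guide lines and 268 ± 4.44 CPM in the NTC lines, and CDK1 101 ± 2.66 CPM in the guide lines and 103 ± 1.59 CPM in the NTC lines (SD over 3 guide and 2 NTC lines). The log2 fold change was -0.03 for CCNB1 (adjusted p = 0.827) and -0.028 for CDK1 (adjusted p = 0.862). Each of the 8 role groups had 0 calls, and their medians ran from -0.019 for the cyclins and CDK1 group to 0.028 for the partners of the anaphase-promoting complex. In the 71 further mitosis genes 0 were called, with 9 at an unadjusted p under 0.05, where 7.98% of all tested genes had such a p. MKI67 had a log2 fold change of 0.15 (adjusted p = 0.612).

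**Figure D5:**
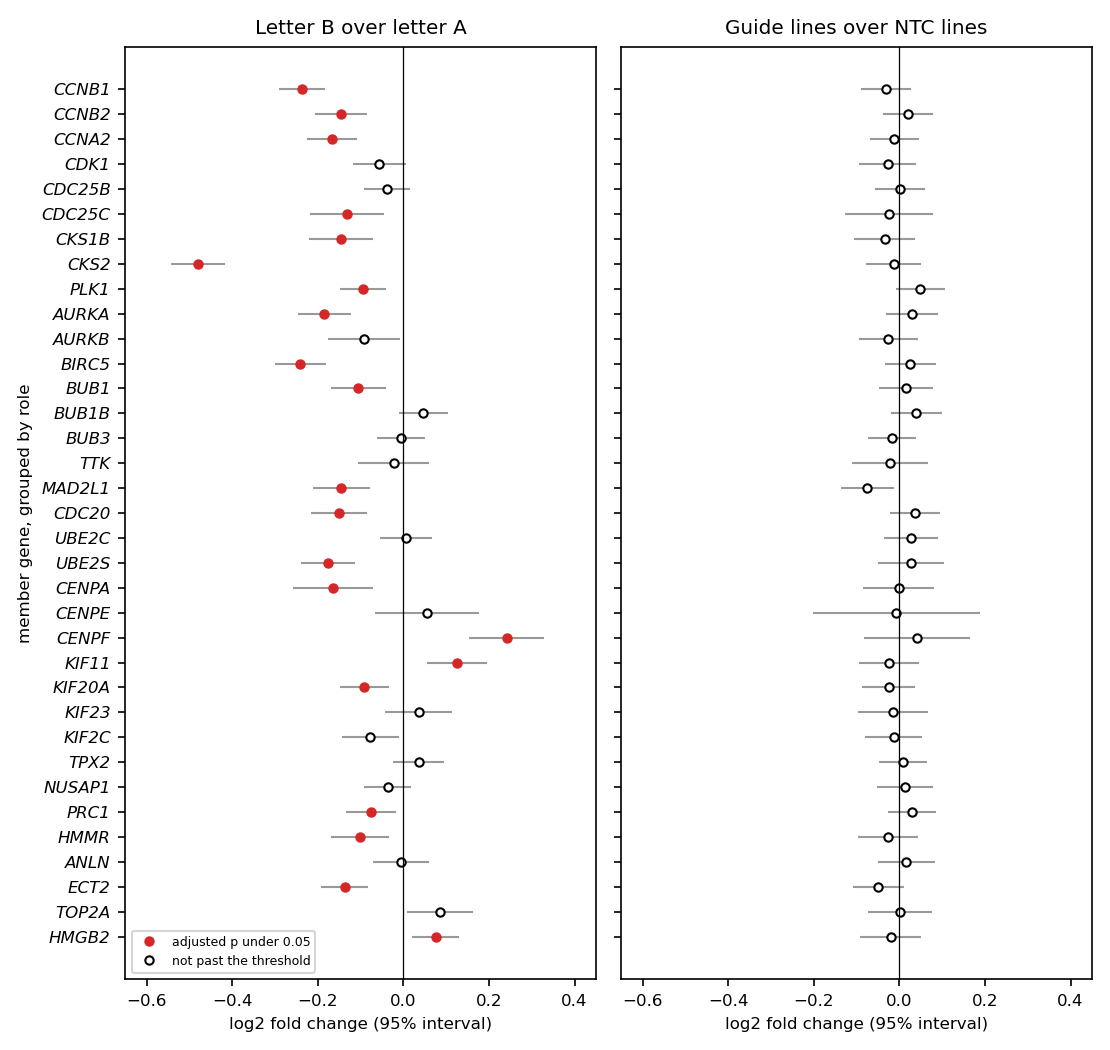
Log2 fold change with its 95% interval for each of the 35 members, for B over A within lines (left) and for guide lines over NTC lines (right), on the same horizontal scale, with red points past an adjusted p of 0.05. On the left 21 members are red and 18 of these lie below 0, and on the right 0 are red and all values lie between -0.075 and 0.048.

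The guides taken singly gave no called member either. Each was set against the average of both NTC lines, in a fit of the 10 libraries with 5 line means, and the 3 comparisons share those NTC libraries. For sg1, sg2 and sg3 alike, 0 of 35 members were called by edgeR, where 0.00609% of 16411 genes were, 0 had an unadjusted p under 0.05 (2.3%, 1.82% and 2.16% of all genes) and DESeq2 called 0. Members ran from -0.093 for ECT2 to 0.088 for UBE2S in sg1, from -0.078 for CDC25C to 0.048 for BUB1B in sg2, and from -0.11 for MAD2L1 to 0.092 for CENPF in sg3. The 95% intervals lay within a 1.2-fold change for 28 members in sg1, 30 in sg2 and 29 in sg3. Of 9527 genes at 10 CPM or more, 69.0%, 71.6% and 69.1% did so in those comparisons. That fit holds no term for the letter, and with the letter as a replicate block the median SE of the members was 0.041 in each of the 3 comparisons, against 0.074 without it. All 35 intervals then lay within a 1.2-fold change in sg1, in sg2 and in sg3, and 0 members were called. At an unadjusted p under 0.05 in that blocked edgeR fit stood 2 members in sg1 (UBE2S and ECT2), 0 in sg2 and 1 in sg3 (MAD2L1). Shares of all genes were not counted for the blocked fit. A test for any difference among the 3 guide lines called 0 members, with 0 at an unadjusted p under 0.05 (0% of all genes were called and 1.38% had such a p). A test for any difference among the 5 lines also called 0, where 0.00609% of genes were called. In that test 1 member, CENPE, had an unadjusted p under 0.05, as did 1.28% of genes, and DESeq2 called 0 in both.

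Between the control lines, NTC2 against NTC1, CENPE had the smallest p of the members. CENPE stood at 19.99 CPM in the B and 18.6 CPM in the A library of NTC2, against 28.7 CPM in the B and 23.6 CPM in the A library of NTC1. Its guide libraries, at 21.1 to 24.4 CPM, all lay above both NTC2 libraries, and sg1 A lay above NTC1 A. The log2 fold change of NTC2 over NTC1 was -0.44 (SE 0.11, 95% interval -0.68 to -0.20), and it was not called (adjusted p = 1). With no filter on low counts the adjusted p was 0.0444, and over 18 alternatives it ran from 0.0444 to 1. CENPF had a log2 fold change of -0.26 (SE 0.15) and TOP2A of -0.11 (SE 0.086) in the same comparison. By edgeR 0 of 35 members were called, with 1 at an unadjusted p under 0.05, where 0% of all genes were called and 1.72% had such a p, and DESeq2 called 0. The intervals of 23 members lay within a 1.2-fold change, as did those of 58.5% of 9527 genes at 10 CPM or more. With the letter as a replicate block those of 33 members did, at a median SE of 0.047, against 0.086 without the block. The exceptions in the blocked fit were CENPE and CENPF, both at an unadjusted p under 0.05 there, and 0 members were called.

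The last question was whether the letter difference was the same size in the guide and NTC lines. Written as the B over A difference in the guide lines minus that in the NTC lines, the interaction was called for 0 of 35 members by edgeR, where 0.0194% of 15462 genes were called, and for 0 by DESeq2. At an unadjusted p under 0.05 stood 6 members, against 5.92% of all genes. TOP2A had an interaction of -0.19 (SE 0.054), CENPF of -0.20 (SE 0.064) and CENPE of -0.24 (SE 0.10). For TOP2A the B over A difference was 0.010 in a fit of the guide lines alone and 0.20 in a fit of the NTC lines alone. AURKB had 0.20 (SE 0.061), CKS1B 0.14 (SE 0.062) and CKS2 0.12 (SE 0.051). Adjusted p for the 6 ran from 0.816 to 0.832. In CKS1B and CENPE the line sg1 stood apart from sg2 and sg3. The log2 difference of B over A in CKS1B was 0.014 in sg1, -0.14 in sg2, -0.15 in sg3, -0.21 in NTC1 and -0.24 in NTC2. In CENPE it was -0.20 in sg1, 0.0028 in sg2, 0.068 in sg3, 0.28 in NTC1 and 0.098 in NTC2. In CKS2 the B over A difference was -0.43 in a fit of the guide lines alone and -0.55 in a fit of the NTC lines alone, past the threshold in each.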

How the data were processed

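Polyadenylated RNA of LS180 cells was sequenced from 10 libraries, and per the labels' protocols the library preparation does not mark strand. Gene-level expected counts were estimated by the authors with RSEM, as the deposited table's name says. The submitters' processing notes list the hg38 build, FastQC 0.11.2, CASAVA 1.8.2 and TopHat2 2.0.8. What each tool did, and which annotation release was used, is not given in the sources used here. Of the deposited values 7.12% were not whole, which touched 9 members, and all were rounded before testing. RSEM divides reads that fit several genes, so similar or overlapping genes have uncertain counts.

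Tests used edgeR 4.0.16 in R 4.3.3 (estimateDisp, glmQLFit, glmQLFTest, TMM, filterByExpr, two-sided), fitted on the whole table, with Benjamini-Hochberg adjustment over all tested genes and a threshold of 0.05. DESeq2 1.42.0 was an alternative. CPM is TMM-scaled over the 10 libraries. Standard errors are the absolute log2 fold change divided by the root of F. The 95% intervals use the t quantile at the fitted degrees of freedom, so they cover counting error and the fitted spread. Letters were tested within lines, arms on counts summed per line, and single lines in 1 fit of 5 line means. The labels do not say whether B and A are separate cultures, so p-values reflect no more than how these samples vary, and that variation may be technical. Lengths and GC content are those of the longest GENCODE 29 basic transcript, and 58597 of the deposited identifiers matched that release. Scripts were tested on simulated data. Same-lettered libraries of different lines deviated together from their line means in all 10 pairs of lines (r 0.189 to 0.361 over 16411 genes), so the letter pairs the libraries, as read from these values. The fit of 5 line means holds no letter term, and the letter entered it as a block in an alternative only.

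Values in every library are given for 14 members chosen by role and for up to 8 further members with the smallest adjusted p, and the other members by their range. Members, lists and tests were chosen with earlier results of these data known.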

Additional observations from a re-analysis of the deposited data

Results flagged for a closer look

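In 7 of 140 groups of 4 to 6 libraries (5%), 1 library lay far from the others of its group relative to the group's range. Independent and uniform groups would give about 1 in 20 by chance. These groups share libraries, and the guide and NTC groups mix the letters, so that rate is only a rough guide. Among the B libraries, CCNB1 stood at 254.8 CPM in NTC2, against 238.2 to 241.4 CPM in the other lines. TPX2 stood at 239.7 CPM in NTC2 B, against 225.5 to 229.4 CPM in the other B libraries. CKS1B stood at 96.7 CPM in sg1 B, with 85.6 to 88.3 CPM in the other B libraries. Among the A libraries, CENPF stood at 97.8 CPM in NTC2, with 121 to 124 CPM in the other lines. Within the NTC libraries, ANLN stood at 92.7 CPM in NTC2 A, with 100.7 to 102 CPM in the other 3. Within the guide libraries, KIF2C stood at 93.3 CPM in sg2 A, with 82.4 to 85.1 CPM in the others, and HMGB2 at 238 CPM in sg1 B, with 208 to 218 CPM in the others. NTC2 holds 4 of these 7 values.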

How the results depend on the processing

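Of the 21 members called between the letters, 21 kept their sign in each of 24 alternatives, and 9 were called in all of them (CCNB1, CCNB2, CCNA2, CKS2, BIRC5, MAD2L1, CDC20, UBE2S and CENPF). Calls were lost in 18 alternatives for PRC1, 17 for HMGB2, 11 for CDC25C, 9 each for KIF20A and HMMR, 8 for BUB1, 5 for CENPA, 3 for PLK1, 2 for CKS1B and 1 each for AURKA, KIF11 and ECT2. The alternatives overlap, since with a term per line a line left with 1 library adds nothing to the letter difference. Leaving out a line, its A library or its B library is thus nearly the same fit, and these tallies count 1 line more than once. The count of calls was 13 in the guide lines alone and 15 in the NTC lines alone, where fewer samples were fitted, and ran from 15 to 22 when 1 library was left out. Without the line as a replicate block 20 were called. Shares of all genes called were not set beside the counts in these settings, so the counts describe the members alone. The members' median letter difference was -0.064 with GC and length offsets, -0.070 in the guide lines alone, -0.068 with library totals alone, -0.068 without line NTC2, and -0.068 to -0.092 when 1 library was left out. For the arm, the paired fit with the letter as a replicate block called 0 members, as did the other alternatives, and gave a median of -0.0055. That median was -0.017 in the A libraries alone, 0.0076 with GC and length offsets, 0.0093 with GC offsets, 0.0080 with the block and GC offsets together, 0.0034 without line NTC1, and -0.024 to 0.011 when 1 library was left out; the cause of these shifts was not tested. With no filter on low counts 1 member, CENPE, was called between NTC2 and NTC1. The block changed no call of a member in the line comparisons. Each member had at least 18.6 CPM in every library, and the line comparisons are limited by their 2 libraries per line.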
